A study of Mus musculus with 18 samples.

Results

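The genes described here are 10 components of the Notch pathway, chosen by symbol: the ligands Dll1, Dll3, Dll4, Jag1 and Jag2, the receptors Notch1, Notch2 and Notch3, and the transcriptional targets Hes1 and Hes5. All 10 were found in the deposited table of 29851 RefSeq transcripts, which correspond to 23421 gene symbols, and each had 1 transcript. The study examined how Polycomb-dependent methylation of histone H3 lysine 27 bears on transcription in embryonic stem (ES) cells of the mouse and in embryoid bodies (EBs) grown from them. Of its 18 samples, 6 are RNA-seq libraries, with 1 library per group, and the 12 ChIP samples are not analysed here. A pair of libraries is of EBs, from E36 cells labelled Eed KO (called KO-labelled EBs below) and from wild-type E36 cells. EBs are aggregates that form when ES cells lose leukemia inhibitory factor. They spent 48 hours in hanging drops, received 0.5 µM of all-trans retinoic acid from day 2 until day 5, and stayed in culture until day 9. Another pair is of undifferentiated E36 cells, labelled Eed KO (KO-labelled ES cells) or wild type, in 15% serum with the factor. The last pair is of E14 ES cells carrying a Setd2-directed hairpin (shSetd2) or a scrambled hairpin (shCtrl) from a pLKO.1 lentivirus, collected 4 days after puromycin selection. All the cells are of the 129/Ola background. The labels do not give the Eed allele or say whether the KO line is a clone.

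Notch ligands are membrane proteins that bind Notch receptors on a neighbouring cell. A bound receptor is cut by proteases, and its intracellular part moves to the nucleus, where it joins the DNA-binding protein RBPJ and switches on targets such as the Hes repressors. In the developing nervous system, cells that begin to form neurons express Delta-like ligands and, through Hes1 and Hes5 in their neighbours, hold those neighbours as progenitors. Eed is a core subunit of Polycomb repressive complex 2, the enzyme that methylates lysine 27 of histone H3, and Setd2 trimethylates lysine 36.

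Levels are in FPKM, which scales the fragments of a transcript to its length and to the mapped fragments of the library, and differences between libraries are of log2(FPKM + 1). By the size rule used here, a difference of at least 1 in size is called higher or lower, among genes with an FPKM of at least 1 in either library. With 1 library per group there is no replicate error, no test and no p-value, and these calls describe pairs of libraries. Summed FPKM per library ran from 452782 in the KO-labelled EBs to 598935 in ES wild type. The relative depth, read from the smallest values with ES wild type at 1, was lowest in the KO-labelled EBs, at 0.790. It was 1.18 in EB wild type, the KO-labelled ES cells and shCtrl. Eed mRNA does not separate the KO labels: it was 21.8 FPKM in the KO-labelled EBs against 25.04 in EB wild type, and 77.8 in the KO-labelled ES cells against 72.3 in ES wild type. Directions drawn from those labels therefore rest on the labels. Setd2 was 2.59 FPKM in shSetd2 against 16.8 in shCtrl.

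**Figure D1:**
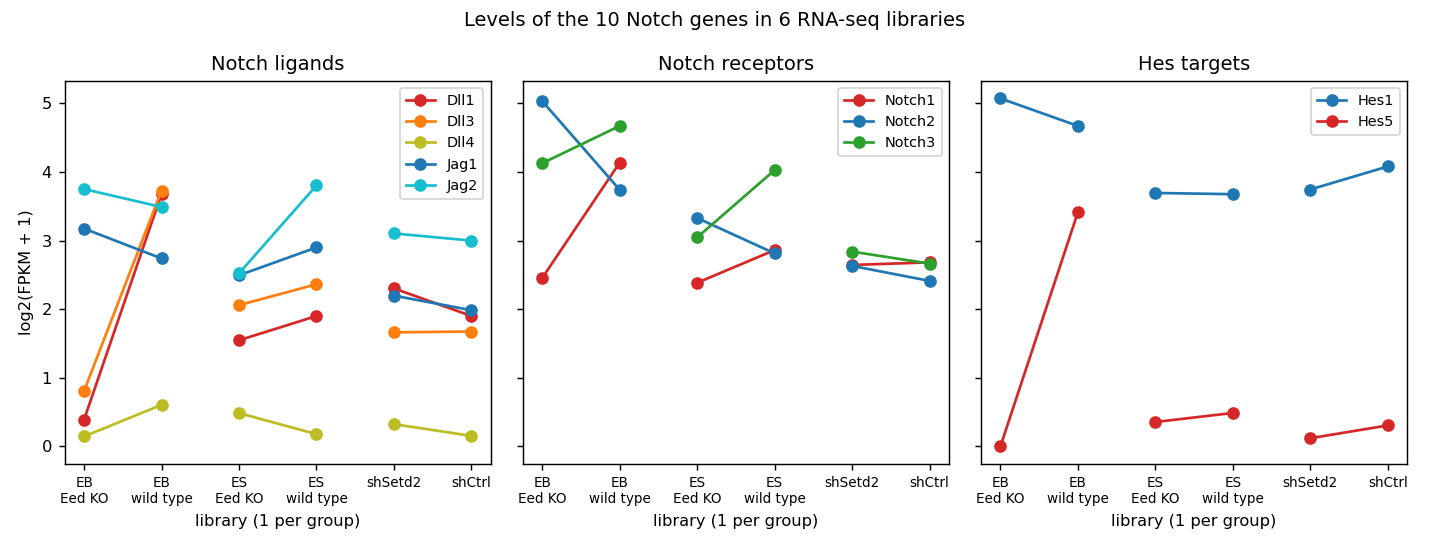
Level of each gene, as log2(FPKM + 1), in the 6 libraries, 1 point per library, with lines joining the libraries that are compared. Dll1, Dll3 and Hes5 are highest in EB wild type and lowest or near their lowest in EB Eed KO, whereas Notch2 and Hes1 are highest in EB Eed KO.

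In EBs, the Delta-like ligands Dll1 and Dll3, the receptor Notch1 and the target Hes5 were lower in the KO-labelled library than in wild type, and the receptor Notch2 was higher. Both Jagged ligands, Notch3 and Hes1 were within the size rule, and Dll4 was too low in both libraries to enter. Of the 9 members that entered, 1 was higher and 4 were lower. Over all 13919 genes that entered, 8.15% were higher and 10.4% lower, or 18.6% in either direction. The median difference was -0.54 over the 9 members and -0.16 over all genes, a shift that median-of-ratios rescaling brought to 0.02 with the same member counts. Dll1, Dll3 and Hes5 entered only through their level in wild-type EBs, and the members were chosen with earlier results of these data known, so their count is a description beside the background.

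Dll1 (NM_007865, mm9 chromosome 17, 15504318 to 15512787), a ligand of neurogenesis and somite formation, was at 0.308 FPKM in the KO-labelled EBs and 11.8 in EB wild type. It was at 1.92 and 2.73 in the ES libraries labelled Eed KO and wild type, and at 3.93 in shSetd2 and 2.73 in shCtrl. The EB libraries thus held both its lowest and its highest value. The EB difference was -3.29, and 173 of the 13919 genes were as low or lower by this measure. Without the added 1, the plain ratio of FPKM values was 38.4-fold. That ratio is against a level under 1 FPKM in the library of lowest relative depth. Dll3 (NM_007866, chromosome 7, 29078574 to 29086804), a divergent ligand that stays largely inside the cell and is known for its part in somite segmentation, was at 0.748 FPKM in the KO-labelled EBs and 12.3 in EB wild type. It was at 3.17 in the KO-labelled ES cells, 4.14 in ES wild type, 2.16 in shSetd2 and 2.19 in shCtrl. The EB difference was -2.92, and the plain ratio without the added 1 was 16.4-fold, also against a level under 1 FPKM. Dll3 therefore had the same order as Dll1 at its ends, with EB wild type above and the KO-labelled EBs below all 4 ES libraries.

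Dll4 (NM_019454, chromosome 2, 119146935 to 119161402), the ligand of sprouting endothelium, lay between 0.104 FPKM in the KO-labelled EBs and 0.519 in EB wild type, with the other libraries between these. No library reached an FPKM of 1, so its order carries little weight. The endothelial markers were also low in EBs. Of 7 such genes, 1 was at an FPKM of at least 1 in the KO-labelled EBs and 2 in EB wild type, and their FPKM summed to 3.23 in the KO-labelled EBs and 6.03 in EB wild type. In the ES libraries the same genes summed to 13.4 to 15.3 FPKM, with Pecam1 alone at 8.91 to 9.97. The part of these markers in the Dll4 level was not tested.

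The Jagged ligands did not follow the Delta-like ones in EBs. Jag1 (NM_013822, chromosome 2, 136907187 to 136942256), a ligand of vascular, cardiac and sensory development, was at 8.03 FPKM in the KO-labelled EBs and 5.68 in EB wild type, a difference of 0.44. In the ES libraries it was at 4.63 FPKM with the KO label, 6.46 in wild type, 3.59 in shSetd2 and 2.96 in shCtrl, so the KO-labelled EBs held its highest value and shCtrl its lowest. Jag2 (NM_010588, chromosome 12, 114146801 to 114167706), a ligand of limb and craniofacial development, was at 12.5 and 10.2 in the same libraries, a difference of 0.26, and its ES values are given below. Both differences are within the size rule. Delta-like mRNAs together made up 5.36% of the summed ligand FPKM in the KO-labelled EBs, against 60.7% in EB wild type and 26.5% to 36.9% in the 4 ES libraries. The summed level of the 5 ligands was 21.7 FPKM in the KO-labelled EBs and 40.5 in EB wild type. These libraries are of mixed cells, so fewer cells expressing a ligand and less of its mRNA per cell cannot be told apart.

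The receptor mRNAs differed in make-up more than in sum. Their 3 mRNAs summed to 52.7 FPKM in the KO-labelled EBs and 53.5 in EB wild type. Notch2 made up 60.2% of that sum in the KO-labelled EBs against 23.1% in wild type, and Notch1 8.50% against 31.05%. Notch3 made up 31.3% against 45.8%. No chromosome shift was taken off these values, and Notch2 lies on chromosome 3, whose shift is given below.

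Notch1 (NM_008714, chromosome 2, 26313422 to 26359342), the main receptor of neural progenitors, was at 4.48 FPKM in the KO-labelled EBs and 16.6 in EB wild type, a difference of -1.68. In the 4 ES libraries it lay between 4.22 and 6.27. EB wild type was thus the only library of the 6 with Notch1 above 6.27. Notch2 (NM_010928, chromosome 3, 97817461 to 97954290), a receptor with roles in liver, kidney and heart, was at 31.7 FPKM in the KO-labelled EBs and 12.4 in EB wild type, a difference of 1.29. It was at 9.05 in the KO-labelled ES cells, 6.03 in ES wild type, 5.19 in shSetd2 and 4.32 in shCtrl, so both EB libraries lay above all 4 ES libraries. Genes of chromosome 3 with a mean FPKM of at least 5 had a median shift of 0.60 in the same comparison, relative to all such genes. After that shift is subtracted Notch2 differed by 0.69 and was no longer called, so the 1 higher call among the members became 0. The part of the chromosome 3 shift in the Notch2 difference was not tested. The chromosomes of the other 9 members shifted by -0.03 to 0.06. Notch3 (NM_008716, chromosome 17, 32257838 to 32303797), the receptor of vascular smooth muscle and pericytes, was at 16.5 FPKM in the KO-labelled EBs and 24.5 in EB wild type, a difference of -0.54. In the ES libraries it ran from 5.34 in shCtrl to 15.3 in ES wild type, so the KO-labelled EBs lay just above that range. The 7 smooth muscle and pericyte markers summed to 382 FPKM and 417 in the same libraries, with 1 gene higher (Cspg4) and 1 lower (Rgs5), and their part in the Notch3 level was not tested.

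**Figure D2:**
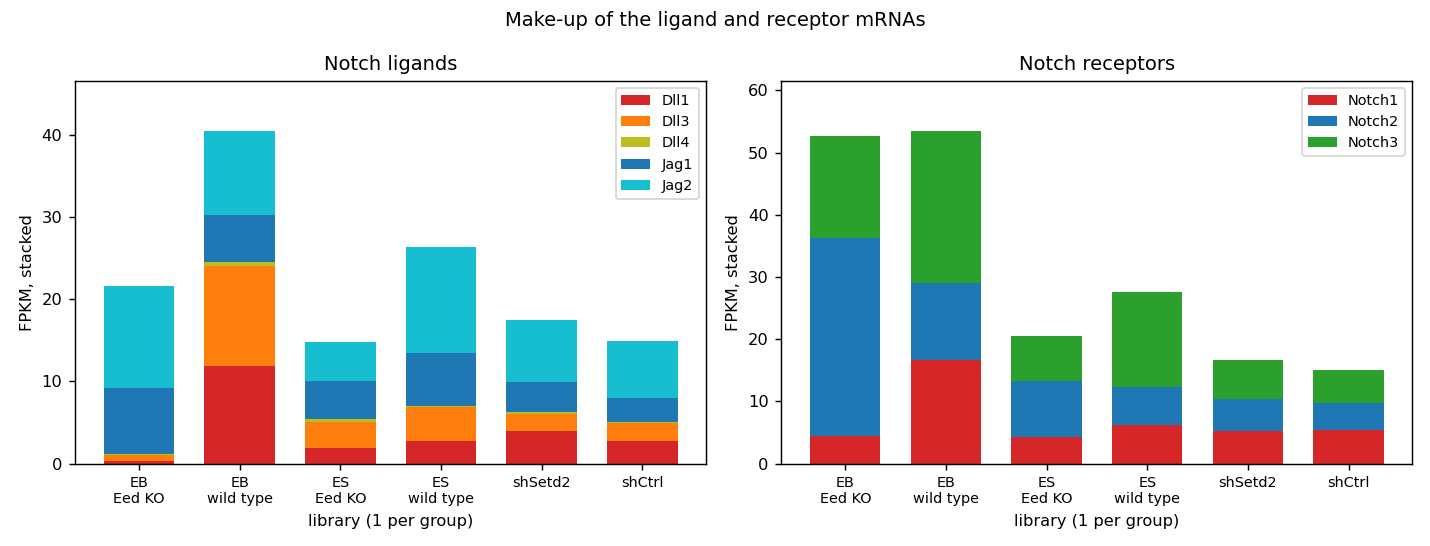
Stacked FPKM of the 5 ligands (left) and 3 receptors (right) in each library, 1 library per group. The ligand sum is 21.7 in EB Eed KO and 40.5 in EB wild type, while the receptor sum is 52.7 and 53.5 with a larger Notch2 part in EB Eed KO.

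The Hes targets differed from each other. Hes1 (NM_008235, chromosome 16, 30065443 to 30067882), a repressor that many tissues and several pathways besides Notch use, was at 32.7 FPKM in the KO-labelled EBs and 24.5 in EB wild type, a difference of 0.40. It was at 11.9 in the KO-labelled ES cells, 11.8 in ES wild type, 12.4 in shSetd2 and 15.9 in shCtrl, so both EB libraries lay above all ES libraries. Hes5 (NM_010419, chromosome 4, 154335032 to 154336480), a repressor largely limited to neural progenitors and closely tied to Notch signalling there, had a listed 0 in the KO-labelled EBs and was at 9.67 FPKM in EB wild type. No fold is given against a listed 0, here in the library of lowest relative depth, and the difference on the log2(FPKM + 1) scale was -3.42. In the 4 ES libraries Hes5 lay between 0.0842 and 0.400 FPKM, so EB wild type was the only library in which it reached 1.

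The sequence before the Hes5 start is shown because RBPJ is the step through which a cut receptor acts on its targets. The letters GTGGGAA, an RBPJ recognition sequence, were searched on both strands in the 250 bases before each start, in the RefSeq promoter windows of GRCm38.p6. Windows were matched for 9 of the 10 members, the other being Hes1, and Dll1 had 2. Of all 32851 windows, 5.42% held the letters, and among the 10 windows of the members 1 did, that of Hes5. It held them at 2 places, starting 226 and 83 bases before the start, and the capitals below mark them, the first being the reverse complement. The Dll1 and Dll3 windows follow because these genes were the most strongly lower with Hes5, and they have no such letters. A match of letters is not a measured binding site.
Hes5 (chr4:154960673-154960922, plus strand): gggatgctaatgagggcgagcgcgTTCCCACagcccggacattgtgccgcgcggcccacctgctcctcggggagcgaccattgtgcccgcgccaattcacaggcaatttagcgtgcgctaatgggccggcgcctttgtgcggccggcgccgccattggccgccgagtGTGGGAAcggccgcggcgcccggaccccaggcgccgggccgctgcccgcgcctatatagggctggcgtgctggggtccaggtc
Dll1, first window (chr17:15375824-15376073, minus strand): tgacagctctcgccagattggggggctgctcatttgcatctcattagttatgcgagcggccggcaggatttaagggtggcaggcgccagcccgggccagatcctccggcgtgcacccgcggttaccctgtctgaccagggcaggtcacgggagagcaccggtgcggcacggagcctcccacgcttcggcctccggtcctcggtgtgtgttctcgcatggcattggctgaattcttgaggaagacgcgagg
Dll1, second window (chr17:15376933-15377182, minus strand): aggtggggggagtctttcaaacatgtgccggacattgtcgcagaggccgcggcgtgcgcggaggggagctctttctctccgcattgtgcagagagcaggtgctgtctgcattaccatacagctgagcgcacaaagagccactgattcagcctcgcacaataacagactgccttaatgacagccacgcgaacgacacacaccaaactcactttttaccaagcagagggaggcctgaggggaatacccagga
Dll3 (chr7:28301786-28302035, minus strand): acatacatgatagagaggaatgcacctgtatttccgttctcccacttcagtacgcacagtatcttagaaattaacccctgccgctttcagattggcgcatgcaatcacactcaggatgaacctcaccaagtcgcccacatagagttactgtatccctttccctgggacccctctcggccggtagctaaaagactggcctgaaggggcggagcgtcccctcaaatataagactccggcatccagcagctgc

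Between the KO-labelled and wild-type EBs, most neural markers were lower, as were Dll1, Dll3, Notch1 and Hes5. The 7 proneural and neuronal markers, among them the bHLH factors Neurog1 and Neurog2, which are known to switch on Dll1 in the neural tube, were all lower in the KO-labelled EBs, with a median difference of -4.18. They summed to 6.28 FPKM there, 424 in EB wild type and 142 to 185 in the 4 ES libraries, so ES cells also held such mRNAs. Most of the ES sum was Tubb3 and Stmn2, at 62.4 and 88.5 FPKM in ES wild type. In EB wild type these were at 290 and 53.5. Neurog2 was at 0.291 FPKM in the KO-labelled EBs and 11.7 in EB wild type. Of the 7 neural progenitor markers 6 were lower and 0 higher, with sums of 36.02 and 271 FPKM. Fabp7, a radial glia gene, had a listed 0 in the KO-labelled EBs and was at 162 FPKM in EB wild type, most of that sum. Pax6, the progenitor marker not called, was at 3.62 and 4.02 FPKM. In KO-labelled EBs against KO-labelled ES cells, 3 of the 5 progenitor markers that entered were higher and 0 lower. The 4 proneural and neuronal markers that entered there were all lower. The part of neural cell content in the levels of Dll1, Dll3, Notch1 and Hes5 was not tested. Presomitic mesoderm, the other tissue in which Dll1 and Dll3 are strong in the embryo, had low markers: none of the 5 reached an FPKM of 1 in either EB library, with Msgn1 at 0 in both and Ripply2 at 0 in wild type. Of 6 pluripotency genes all were lower in the KO-labelled EBs, with sums of 17.1 FPKM there and 222 in wild-type EBs, against 2642 to 3892 in the 4 ES libraries. The extraembryonic endoderm genes Gata4 and Gata6 were higher in the KO-labelled EBs, at 24.8 and 52.6 FPKM there against 3.30 and 17.6 in EB wild type. The other 4 genes of that list were under 1 FPKM in both EB libraries and did not enter, with Sox17 at 0.420 in the KO-labelled EBs and 0.826 in EB wild type.

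The rest of the pathway was examined with a list of 50 genes, of which 48 were in the table and 45 entered the EB comparison. Of these, 6 were higher and 7 lower in the KO-labelled EBs, with a median of -0.10, beside 8.15% higher and 10.4% lower over all genes. The counts by class that follow are of few genes each, stand beside the same shares, and are descriptions. Among the lower ones were Nrarp and Hes6. Nrarp, a feedback inhibitor that Notch signalling induces, was at 1.97 FPKM in the KO-labelled EBs and 23.1 in EB wild type, and Hes6, a neurogenic relative of Hes1, was at 12.9 and 97.4. The Hey targets, which serve mainly heart and vessels, were within the size rule: Hey1 was at 17.6 and 12.8 and Hey2 at 1.55 and 1.79.

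Of 5 genes that glycosylate receptors and ligands, 2 were lower and 0 higher. Both, Mfng and Lfng, encode Fringe enzymes that add sugars to Notch and set which ligands it answers to, and they were at 0.263 and 3.59 FPKM in the KO-labelled EBs, against 14.4 and 8.88 in EB wild type. The third Fringe gene, Rfng, was at 9.63 and 14.5, within the size rule. Its difference was -0.55, beside a median shift of -0.55 for chromosome 11, on which Rfng lies. By its chosen transcript, Rbpj, the DNA-binding effector, was at 4.37 FPKM in the KO-labelled EBs and 14.9 in EB wild type. The difference was -1.57, and no sum over transcripts was computed for it. Rbpj was the 1 of 4 nuclear effector genes that was called. Dtx4, a Deltex ubiquitin ligase and the 1 of 8 inhibitor and turnover genes called, was at 1.5 and 10.4.

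Among genes of receptor processing, 1 of 3 proteases and 2 of 6 gamma-secretase genes were higher and 0 lower. Furin, which cuts Notch during its maturation, was at 24.7 FPKM in the KO-labelled EBs and 5.75 in EB wild type, a difference of 1.93. The gamma-secretase subunit Aph1a was at 57.5 and 26.5 and its relative Aph1b at 6.72 and 2.64, with differences of 1.09 and 1.08. Aph1a lies on chromosome 3, which has the shift given above. Aph1b and Aph1c are close copies, and how reads were divided between them is not given in the sources used here. The ligand ubiquitin ligase Neurl1b and the Groucho corepressor Tle2 were also higher, with differences of 1.04 and 1.41. The 2 non-canonical ligands in the table went opposite ways. Dner, a neuronal ligand, was at 0.0681 FPKM in the KO-labelled EBs and 13.2 in EB wild type, while Dlk1, a paternally expressed imprinted gene, was at 563 and 58.9.

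**Figure D3:**
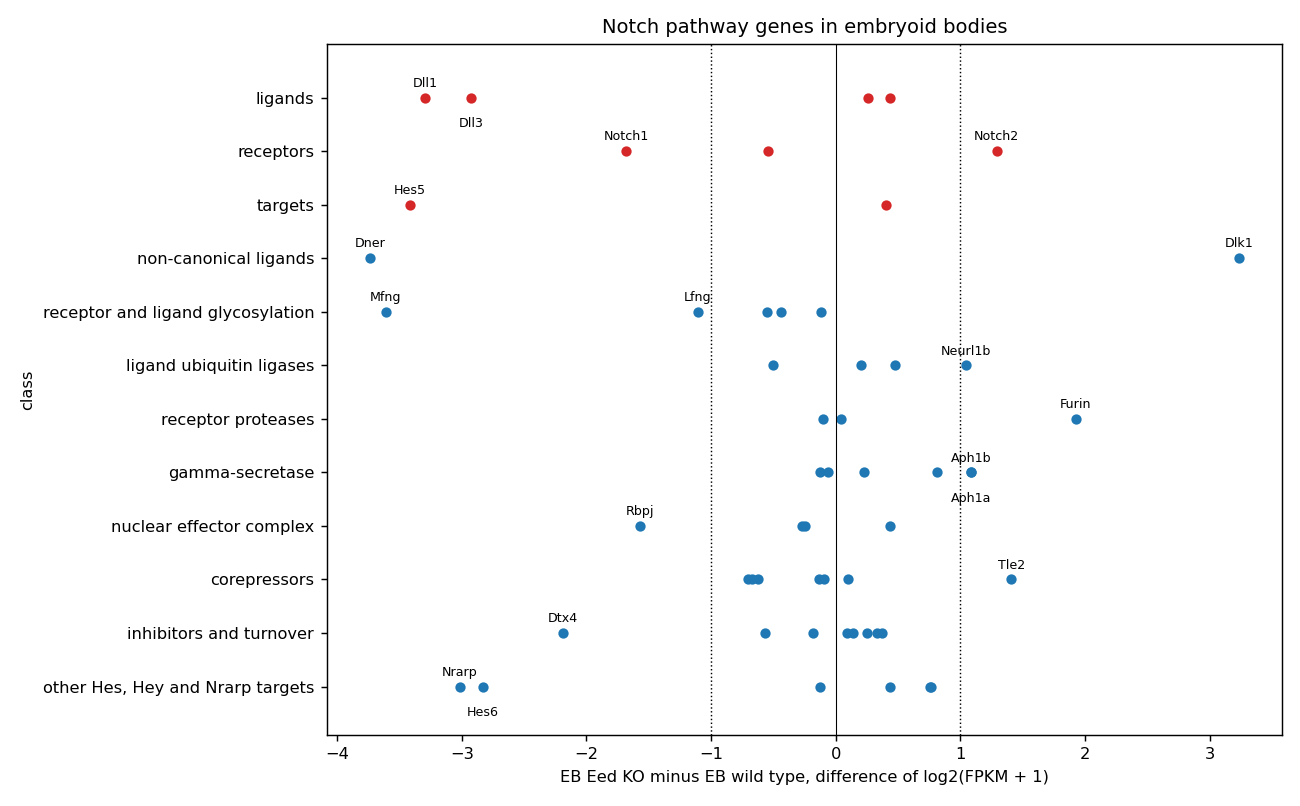
Difference of log2(FPKM + 1), EB Eed KO minus EB wild type, for each Notch pathway gene with an FPKM of at least 1 in either library. The 10 listed genes are in red (9 entered), 45 others are in blue by class, dotted lines mark a size of 1, and genes past it are named, from Dner at -3.73 to Dlk1 at 3.24.

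In undifferentiated ES cells the members lay closer to wild type. Jag2 was lower in the KO-labelled ES cells, at 4.74 FPKM against 13.0 in ES wild type, a difference of -1.28. Of the 8 members that entered, 0 were higher and this 1 was lower. Over all 12862 genes 3.24% were higher and 3.46% lower, or 6.7% in either direction, and 1 call among 8 members cannot be set apart from these shares. Dll4 and Hes5 did not enter. Notch3 was just inside the size rule, at 7.26 against 15.3, a difference of -0.98. Notch2 was at 9.05 against 6.03, a difference of 0.52 beside a chromosome 3 shift of 0.38. Hes1 was at 11.9 against 11.8.

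The Jag2 and Notch3 results rested on the ES wild-type library. That library held the highest Jag2 and Notch3 values of the 4 ES libraries, and shCtrl, another control, had 7.0 and 5.34 FPKM, with 7.60 and 6.15 in shSetd2. Against shCtrl, which is of another line, the KO-labelled ES cells differed by -0.48 for Jag2 and 0.38 for Notch3, and 0 members were lower. The sum of the smooth muscle and pericyte markers had the same order as Notch3 in these libraries. It was 66.8 FPKM in the KO-labelled ES cells, 156 in ES wild type, 43.6 in shSetd2 and 27.1 in shCtrl. Tagln alone was at 115 FPKM in ES wild type. By gene, 4 of these markers entered between the KO-labelled and wild-type ES cells, with 2 lower (Tagln and Cnn1) and 1 higher (Pdgfrb). The part of these markers in the Notch3 level was not tested. Of the 37 other pathway genes that entered, 0 were higher and 3 were lower (Rfng, Dtx3 and Hes3), beside 3.24% and 3.46% over all genes. Rfng lies on chromosome 11, which had a median shift of -0.49.

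The members were also compared between EBs and ES cells with the same label. Between the KO-labelled libraries, EBs against ES cells, Notch2, Hes1, Jag2 and Notch3 were higher, with differences of 1.70, 1.38, 1.23 and 1.08, and Dll1 and Dll3 were lower, at -1.16 and -1.25. That made 4 higher and 2 lower of 8, beside 20.8% and 19.6% over 13999 genes, 40.4% together. Notch1 differed by 0.07 there, and Hes5 did not enter. Between the wild-type libraries, EBs against ES cells, Hes5, Dll1, Dll3 and Notch1 were higher, with differences of 2.93, 1.78, 1.37 and 1.28, and 0 of the 9 members that entered were lower. Over the 14047 genes of this comparison 20.3% were higher and 14.9% lower, 35.3% together. Hes1, at 24.5 FPKM in wild-type EBs and 11.8 in wild-type ES cells, and Notch2, at 12.4 and 6.03, fell just short of the size rule with differences of 0.996 and 0.928. Under a pseudocount of 0.1 and both rescalings they passed it, which made 6 members higher in wild type. Hes1 and Notch2 were then higher with both labels. The shares over all genes were not recomputed there, so the count of 6 has no background beside it. The median over all genes was 0.03 as reported, 0.18 under median-of-ratios rescaling and 0.28 with equal totals. Dll1 and Dll3 therefore lay on opposite sides of their ES level, below it in KO-labelled EBs and above it in wild-type EBs. The comparisons share libraries with that of KO-labelled and wild-type EBs, so they are other views of the same 4 libraries and add no independent values.

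**Figure D4:**
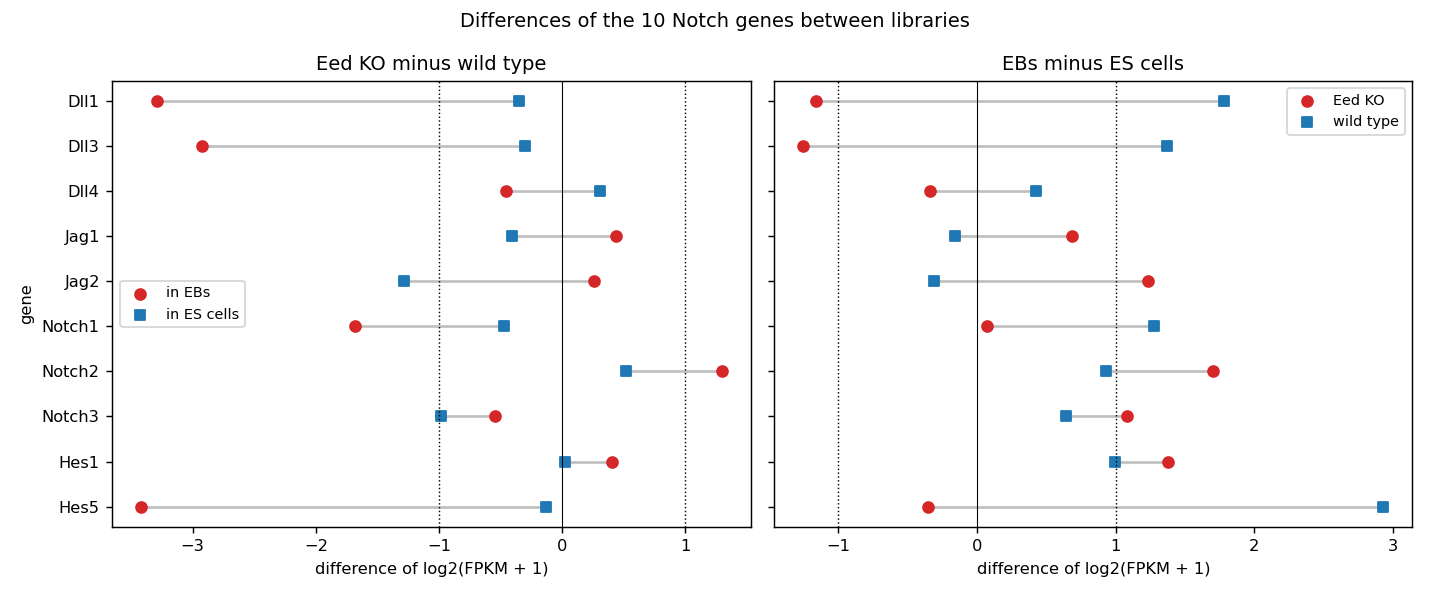
Difference of log2(FPKM + 1) for the 10 genes: Eed KO minus wild type in EBs (circles) and ES cells (squares) on the left, and EBs minus ES cells for Eed KO (circles) and wild type (squares) on the right. Dotted lines mark a size of 1. Dll1 is at -3.29 in EBs and -0.35 in ES cells on the left.

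Of the 45 pathway genes outside the members that entered, 15 were higher and 6 lower in EBs than in ES cells with the KO label, beside the 20.8% and 19.6% over all genes. In wild type 16 were higher and 5 lower, beside 20.3% and 14.9%, so many calls are found among genes of any kind in these comparisons. Rbpj, by its chosen transcript NM_001080928, was lower in both. It was at 4.37 FPKM in KO-labelled EBs against 81.2 in KO-labelled ES cells, and at 14.9 in wild-type EBs against 49.2 in wild-type ES cells. A sum over transcripts was not computed for genes outside the members. Notch4, an endothelial receptor, was at 0.0708 FPKM in KO-labelled EBs against 4.09 in KO-labelled ES cells, and at 0.497 in wild-type EBs against 3.16 in wild-type ES cells. Hey1 was higher in both, at 17.6 against 3.27 with the KO label and 12.8 against 1.67 in wild type. Nrarp was at 1.97 in KO-labelled EBs against 2.78 in KO-labelled ES cells, whereas in wild type it was at 23.1 in EBs against 2.17 in ES cells.

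In the Setd2 knockdown no member passed the size rule. Of 8 that entered, 0 were higher and 0 lower in shSetd2 against shCtrl, beside 0.706% higher and 1.7% lower of 12317 genes, 2.41% in either direction. The widest differences were 0.40 for Dll1, at 3.93 FPKM in shSetd2 and 2.73 in shCtrl, and -0.34 for Hes1, at 12.4 and 15.9. Notch1 was at 5.25 FPKM in shSetd2 and 5.42 in shCtrl, the closest pair of values among the receptors. The median over members was 0.14 and over all genes -0.13. None of the 36 other pathway genes that entered was called. The depth and the lack of replicates do not allow smaller differences to be told from library noise.

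The control ES cells are of different lines. In shCtrl, of E14 cells, against ES wild type, of E36 cells, Notch3 was lower by the size rule at -1.36, and the other 7 members that entered lay between -0.92 (Jag1) and 0.40 (Hes1). That made 0 higher and 1 lower of 8, beside 3.14% and 5.65% of all 12747 genes, 8.79% in either direction.

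For the member of each role with the widest range over the 6 libraries, the genes with the most similar profile were named, by the mean absolute gap between log2(FPKM + 1) values centred on each gene, among 14964 genes. The 3 nearest to Hes5 were Dner, the secretogranin Scg3 and the somatostatin receptor Sstr2, with gaps of 0.07, 0.11 and 0.11. Dner was at 13.2 FPKM in EB wild type and at most 0.673 elsewhere. Nearest to Dll1 were Phyhipl, Csrnp3 and Dclk2, with gaps of 0.17, 0.19 and 0.23, each highest in EB wild type. Phyhipl was at 0.303 FPKM in the KO-labelled EBs and 9.57 in EB wild type, close to the Dll1 values. Nearest to Notch2 were Pgm2l1, Mylip and Cyp4v3, with gaps of 0.06, 0.07 and 0.07, each highest in the KO-labelled EBs. Pgm2l1 was at 17.5 FPKM in the KO-labelled EBs and 5.52 in EB wild type. Each likeness is over 6 libraries and is a description.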

How the data were processed

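Per the labels' protocols, Trizol RNA went into TruSeq RNA v2 libraries. The values are FPKM per RefSeq transcript that the authors deposited, made with TopHat and Cuffdiff on mm9, per the submitters' processing notes. Tool versions, settings and any scaling across libraries were not given in the sources used here. The kit does not mark strand, so sense and antisense reads are counted together.

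Transcripts were given symbols through a RefSeq table of GRCm38.p6, used for names, which matched 29300 transcripts and not 551. For 3939 symbols with several transcripts, the one whose mean over the 6 libraries was highest was taken. Starts were written from 1. Differences were computed in Python 3.11.15 (pandas 2.3.3, numpy 2.4.6) after adding 1, so changes of low genes are understated, and were called at a size of 1 (2-fold) among genes with FPKM of at least 1 in either library. The 6 comparisons have 1 library per group, so no test was run. The named genes are the members, up to 3 genes per class of the pathway list, and the 3 genes most like a member. Of that list, 2 genes are not analysed here. Other genes printed were chosen after values were seen. The members and lists were chosen with earlier results of these data known. Alternatives varied the pseudocount, filter, scaling, transcript sum, ES control and chromosome shift, and calls were recomputed for the members only.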

Additional observations from a re-analysis of the deposited data

Results flagged for a closer look

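In 4 members the label difference, KO-labelled minus wild type, differed between EBs and ES cells by at least 1. Their groups also went opposite ways in at least 1 of the 2 views, KO against wild type or EBs against ES cells. The label difference in EBs minus that in ES cells was -3.28 for Hes5, -2.94 for Dll1 and -2.62 for Dll3. For these 3 genes, EBs were lower than ES cells with the KO label and higher in wild type, though Hes5 was under 1 FPKM in both KO-labelled libraries. For Jag2 the label difference in EBs minus that in ES cells was 1.54, since the KO label differed by 0.26 in EBs and by -1.28 in ES cells. These differences were not tested, since each rests on 4 single libraries, and Eed mRNA does not separate the labels. The Jag2 value rests on the ES wild-type library, as given above.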

How the results depend on the processing

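No paired analysis was possible because each group has 1 library. Of 358 recomputed member differences, 347 kept their call, 11 crossed the size of 1 and 0 changed sign after a call. Some of these could not move. The transcript sum (50 differences) repeats the same values, since each member has 1 transcript. Dropping the filter (60) adds only genes under 1 FPKM in both libraries, which cannot reach a size of 1. The minimum FPKM of 5 (40) keeps the same differences, and members that no longer entered are left out of the 358. With a pseudocount of 0.1 the members lower in ES Eed KO against ES wild type numbered 2 (Notch3 at -1.07 was added), and those lower in shCtrl against ES wild type 2 (Jag1 at -1.10 was added). With shCtrl as the control of ES Eed KO, 0 were lower. With a minimum FPKM of 5, 0 members were lower in EB Eed KO against ES Eed KO, since Dll1 and Dll3 no longer entered. With the chromosome shift subtracted, a setting chosen after seeing the data, 0 were higher in EB Eed KO against EB wild type, and Jag2 in EB Eed KO against ES Eed KO was at 0.97. In EB wild type against ES wild type, Hes1 and Notch2 passed a size of 1 under a pseudocount of 0.1 (1.05 and 1.02), median-of-ratios rescaling (1.16 and 1.08) and equal totals (1.26 and 1.18). Median-of-ratios rescaling moved the median of all genes by over 0.1 in 4 comparisons. The shares of all genes called were not recomputed under these settings, so the member counts above have no background beside them. The FPKM table gives no counts, so values near 0 have no stated precision.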

Other observations

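The start regions of the members differed in base make-up. Jag2 had 54 CpG dinucleotides in the 250 bases before its start, a number that 0.0152% of all 32851 windows reach, while Dll3 had 10, which 37.8% reach. Hes5 had 32 and Notch2 34. The letters CACNAG, an N-box recognised by Hes repressors, were present in the windows of Dll4, Notch1, Notch2 and Notch3, which make 4 of the 10 member windows, beside 36.7% of all windows. Dll1, Dll3, Jag1, Jag2 and Hes5 had none in these windows.

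Hes3, a neural Hes gene, was at 0.557 FPKM in the KO-labelled ES cells and 3.01 in ES wild type, the highest of the 6, with shCtrl at 0.944. Hes7, the oscillating gene of somite formation, was at 2.48 FPKM in the KO-labelled EBs and 1.04 in EB wild type, within the size rule. Its difference was 0.77, beside a median shift of -0.55 for its chromosome, 11, and the part of that shift was not tested. Numbl, a Numb relative that restrains Notch, was at 25.8 and 19.8 in the same EB libraries.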
